A study of Homo sapiens with 22 samples.

Results

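The 1004 regions described here are deposited peaks that recurred in all 4 PSF-CLIP peak lists of LNCaP prostate cancer cells. They are the peaks of the first vehicle list that overlapped, by 1 bp or more, a peak in each of the other 3 lists, and they made up 4.14% of the 24242 peaks of that list. They are called shared peaks, and the other 23238 peaks of the first vehicle list are the comparison set. They were chosen by the peak positions in the 4 lists, so their number, score and width are given as descriptions, with no test. RIP-seq reads did not enter that choice and were tested.

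PSF, also named SFPQ, is a nuclear RNA-binding protein of the DBHS family, with NONO and PSPC1 as its partners. It takes part in splicing and transcription and is a core protein of paraspeckles, nuclear bodies built on the long noncoding RNA NEAT1. In crosslinking immunoprecipitation (CLIP), ultraviolet light fixes protein to RNA in the cell, RNA is trimmed, and the fragments pulled down with the protein are sequenced. RNA immunoprecipitation (RIP) recovers whole transcripts without that crosslink.

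The CLIP lists came from LNCaP, an androgen-responsive line, crosslinked at 150 mJ/cm2, with 2 libraries after the androgen dihydrotestosterone (DHT, 10 nM for 24 h) and 2 after ethanol vehicle. The lists carry 2 labels, Anti-PSF (the first vehicle list among them) and Anti-PSF-m. How the labels differ was not established here, so the first and second lists of a treatment may not be plain repeats. PSF-RIP and input libraries came from LNCaP, 22Rv1, a line from a relapsed prostate xenograft, and LTAD, a line kept in steroid-depleted serum whose name the labels do not spell out. Each line, treatment and assay had 1 RIP or input library, 12 in all, so 6 pairs of line and treatment served as samples. All cells, controls included, spent the days before treatment in medium with 2.5% steroid-stripped serum. Whether libraries came from separate cultures is not stated in the labels. The p-values therefore rest on library-to-library spread, part of which may be technical.

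PSF-RIP libraries held 4641602 to 10439461 mapped reads and inputs 1073228 to 3014049. The LNCaP inputs held 7866 reads (DHT) and 2354 reads (vehicle) over 10 markers of luminal prostate cells, and 24 and 24 reads over 9 markers of basal, stromal, leukocyte, endothelial and neuroendocrine cells, of which 5 were at 0 in both. The 4 lists differed in size: 23580 peaks in the first DHT list, 13546 in the second DHT list, 24242 in the first vehicle list and 7691 in the second vehicle list. Median peak widths were 410 bp, 158 bp, 491 bp and 139 bp in the same order. No peak in any list scored under 50.

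The recurring regions fell into 4 kinds of sequence. Peaks that shared at least 50 words of 24 bases were joined into families, on either strand. The largest family held 360 shared peaks, spread over all 24 chromosomes searched. A further 128 peaks formed 28 smaller families of 2 to 12 peaks, and 103 peaks outside the families were tandem repeats, in which at least 20% of the 16-base words of the peak occurred again within it. With family members included, 144 shared peaks met that measure of repetition. The remaining 413 peaks joined no family. Copies of these elsewhere in the genome were not counted, so they are not called unique. How reads that match several copies were placed is not given in the sources used here.

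The members of the large family share stretches of nearly the same sequence at distant sites, and their commonest shared word of 24 bases was followed through the lists. The word occurred 603 times in the genome and in 121 of the 1004 shared peaks (12.1%), against 418 of the other 23238 peaks (1.80%). The word was picked from the shared peaks, so a higher share among them is partly built in. By list, 453 peaks of the first DHT list, 227 of the second DHT list, 539 of the first vehicle list and 73 of the second vehicle list held it.

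Tandem repeats gave the highest scores. The sequences of 3 of the highest-scoring tandem peaks are shown from the first copy of their commonest 16-base word, with each copy in capitals. All coordinates are GRCh37 (hg19), plus strand unless given, and the sequences were read from the reference genome.
Intron of ATP9B, chr18:77068688-77068847: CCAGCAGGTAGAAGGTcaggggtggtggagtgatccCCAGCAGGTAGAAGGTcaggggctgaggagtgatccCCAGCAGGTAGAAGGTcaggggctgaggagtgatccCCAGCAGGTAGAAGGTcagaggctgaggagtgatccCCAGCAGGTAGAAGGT
Intron of IDI1, chr10:1092414-1092573: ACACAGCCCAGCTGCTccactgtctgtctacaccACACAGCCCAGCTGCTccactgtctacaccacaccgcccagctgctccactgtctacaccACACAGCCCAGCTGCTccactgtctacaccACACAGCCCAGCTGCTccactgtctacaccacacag
Intron of RPH3AL, chr17:164232-164391: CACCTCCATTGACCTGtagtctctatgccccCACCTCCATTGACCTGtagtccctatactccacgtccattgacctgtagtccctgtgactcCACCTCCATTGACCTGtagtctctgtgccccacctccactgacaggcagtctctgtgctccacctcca
The word occurred 29 times in the ATP9B peak, most often every 36 bases, 38 times in the IDI1 peak, most often every 30 bases, and 60 times in the RPH3AL peak, most often every 31 bases.

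Of the 413 peaks in no family, 338 (81.8%) had their centre in an intron. Intron sequence of this kind is shown here for the SFPQ gene itself and for SCHLAP1, a long noncoding RNA of prostate cancer. Each stretch is the 180 bases at the centre of the gene's highest-scoring shared peak within an intron, on the strand of the gene. Capitals mark GAGGAA, and neither stretch holds GGAGAG or TGTGTG.
SFPQ, chr1:35647844-35648023, minus strand: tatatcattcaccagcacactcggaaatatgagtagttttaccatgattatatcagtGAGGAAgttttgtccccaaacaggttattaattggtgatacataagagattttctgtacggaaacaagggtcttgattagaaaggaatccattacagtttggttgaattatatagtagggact
SCHLAP1, chr2:181709425-181709604, plus strand: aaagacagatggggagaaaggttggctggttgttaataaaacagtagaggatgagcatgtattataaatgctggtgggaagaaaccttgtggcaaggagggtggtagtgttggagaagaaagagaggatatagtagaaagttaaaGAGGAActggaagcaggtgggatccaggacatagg
In the central 300 bases, on either strand, GAGGAA occurred in 33.7% of 979 shared peaks at least that wide and in 35.6% of 19888 other peaks. GGAGAG occurred in 35.8% of shared peaks and 33.1% of other peaks, TGTGTG in 14.9% and 18.0%, and TTTTTT in 186 of 979 and 5792 of 19888 (29.1%). Within the shared peaks, TTTTTT was in 26.9% of those in no family and in 1.10% of tandem repeats. AATAAA was in 26.6% of shared peaks and 33.7% of other peaks.

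The shared peaks were the tall and broad peaks of their list. The score is the authors' own value per peak and was used only to rank within a list. The median score was 337 for shared peaks (range 50.8 to 3115.54) and 85.4 for other peaks (range 50 to 3100), and the median width was 984.5 bp and 482 bp. The 2424 highest-scoring peaks of the list held 629 of the 1004 shared peaks (62.6%), and the 2425 lowest held 3. Of those 2424 highest peaks, 25.9% were shared. By kind, the median score was 747 for tandem repeats, 477 for the smaller families, 414 for peaks in no family and 219 for the large family.

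**Figure D1:**
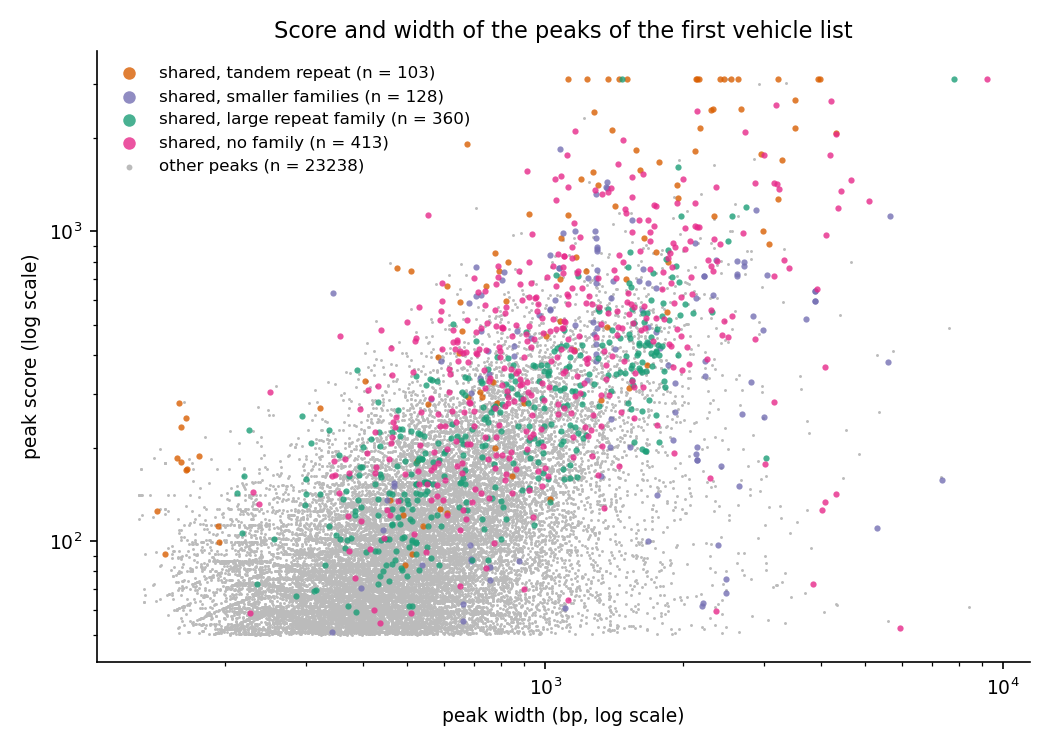
Score against width of every peak of the first vehicle list, both on log scales, with shared peaks coloured by kind of sequence and the other 23238 peaks in grey. Shared peaks lie toward the upper right, and a row of 18 of them sits at scores of 3100 or slightly more.

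Scores ended in a ceiling. At 3100 or above stood 19 peaks of the list, and 18 of them were shared. Of these, 15 were tandem repeats, 2 belonged to the large family and 1 to no family. Within 2 Mb of a chromosome end lay 9 of the 18, among them the peak in RPH3AL. The highest score, 3115.54, belonged to the intronic peak of ATP9B, a phospholipid-flipping ATPase, at chr18:77068352-77069799. IDI1, an enzyme of isoprenoid synthesis, followed with 3100.28 at chr10:1092349-1093857. The other genes at the ceiling with an intronic tandem peak were ABR, AFDN, ATP10A, FAM120B, HDAC4, PHF2, PNPLA7 and TSPEAR. In SEC14L1 and TP73-AS1 the tandem peak lay over an exon. MAOA, which encodes monoamine oxidase A, held the widest peak, 9234 bp at chrX:43571863-43581096, and it was the member of no family.

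Overlap between lists was often partial. The smallest of a peak's 3 overlaps had a median of 170 bp, which was 20.4% of the width of the first vehicle peak, and ranged from 4 to 2638 bp. Just inside the rule were chr1:5175739-5176726 with 4 bp, chr6:126308114-126310032 with 45 bp and chr16:53298397-53298862, in the chromatin remodeller gene CHD9, with 53 bp. Just outside were chr3:196859061-196859813, 1 bp from a peak of its missing list, chr3:195670093-195672756 at 21 bp and chr12:70482348-70483518 at 25 bp. A total of 3993 peaks occurred in exactly 3 lists, and 3488 of them lacked the second vehicle list alone.

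The kinds of sequence changed with the number of lists. Words of the large family (at least 50 of them) were in 4.96% of peaks found in no other list, 13.1% of those in 1 other list, 25.1% of those in 2 and 35.1% of the shared peaks. The measure of tandem repetition, family members included, was met by 2.66%, 2.45%, 5.03% and 14.3% in the same order. The share of peaks in a RefSeq gene was 76.5%, 75.6%, 68.3% and 58.9%. The median score also climbed in this order, to 67.6, 98.5, 161 and 337, and the median width to 393, 529, 661 and 984.5 bp. Number of lists, score, width and sequence thus moved together, and their separate parts were not tested. The family words were taken from the shared peaks, so their higher share there is partly built in.

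**Figure D2:**
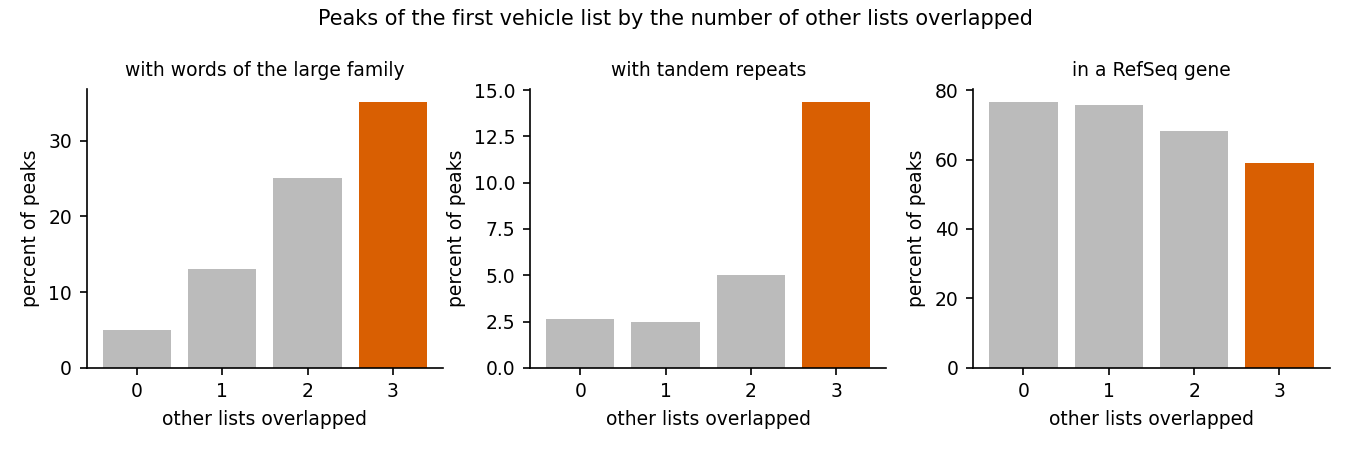
Percent of first vehicle peaks with words of the large family, peaks that meet the measure of tandem repetition (the panel of tandem repeats, family members included) and peaks in a RefSeq gene, against the number of other lists overlapped. Shared peaks (orange, 3 lists), from which the family words were taken, reach 35.1%, 14.3% and 58.9%.

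Shared peaks lay outside genes more often than the rest of their list. In RefSeq genes were 591 of the 1004 shared peaks (58.9%) and 74.7% of other peaks. In the broader GENCODE annotation the shares were 73.6% and 85.1%. By kind, 90.8% of peaks in no family were in a RefSeq gene, 81.6% of tandem repeats, 44.5% of the smaller families and 20.8% of the large family, so the families alone lay below the other peaks. By peak centre, 658 shared peaks (65.5%) were in introns, 12 in coding sequence, 16 in 3′ UTRs, 6 in 5′ UTRs, 43 in exons of noncoding RNAs and 269 (26.8%) outside genes. Among other peaks 68.6% were in introns, 5.40% in coding sequence, 4.85% in 3′ UTRs and 15.2% outside genes.

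**Figure D3:**
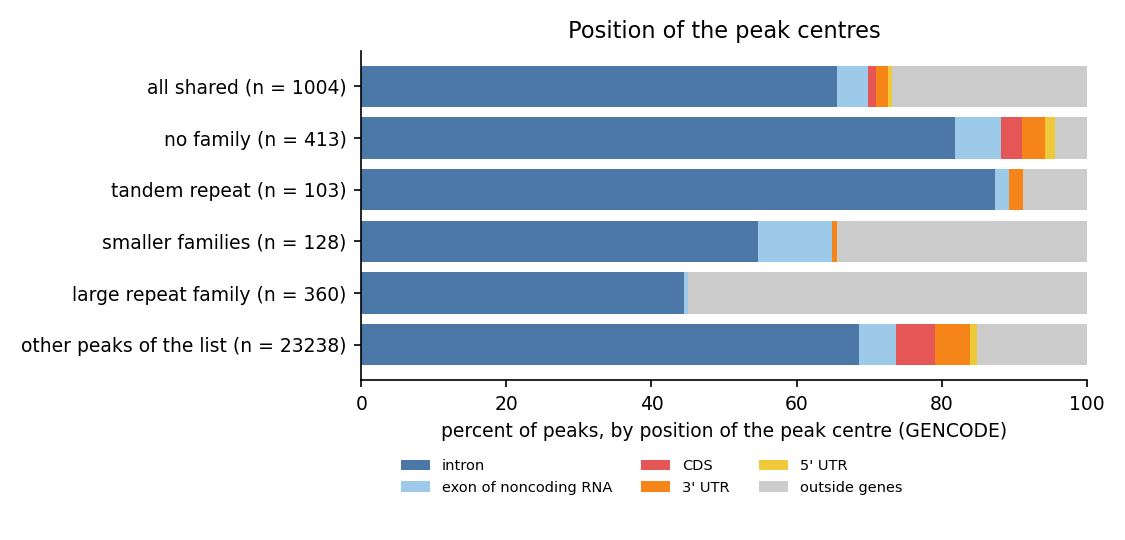
Percent of peaks whose centre lies in each GENCODE feature, for all shared peaks, for the 4 kinds of shared peak and for the other 23238 peaks. Introns take 65.5% of shared peaks and 68.6% of other peaks, and 55.0% of the large family lies outside genes.

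Within 2 Mb of a chromosome end lay 7.97% of shared peaks and 4.12% of other peaks, and among the shared tandem repeats 46.6%. The genes around shared peaks had a median length of 103 kb, against 101 kb for other peaks, and the introns 19.7 kb, against 17.1 kb. Among the smaller families, 10 peaks lay in a cluster of zinc finger genes on chromosome 19 that includes ZNF28 and ZNF611. Further sets of copies were SMG1 and its pseudogenes (8 peaks, chromosome 16), RANBP2 and the RGPD genes (8, chromosome 2), HERC2 and its pseudogenes (7, chromosomes 15 and 16) and the WASH genes (4 peaks). Reads of such copies cannot be told apart by position alone.

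The shared peaks touched 505 genes, 7.38% of the 6841 genes with any peak of the list. Most genes (428) held 1 shared peak, 56 held 2, 11 held 3 and 10 held 4 or more. The more peaks a gene had in the list, the more often 1 was shared: 3.55% of 3100 genes with 1 peak, 16.8% of 820 genes with 5 to 9 and 75.6% of 41 genes with 20 or more. A rise is built into such a count, since each further peak is another that can be shared. PPP3CA, the catalytic subunit of the phosphatase calcineurin, held 7 shared of 34 peaks. MIR99AHG, a noncoding host gene of microRNAs, also held 7 of 34. The kinase gene PRKD1 held 6 of 34 and NCAM2, a neural adhesion molecule, 6 of 59. PPFIA2, a liprin scaffold, held 5 of 58, and NAALADL2 5 of 70. ANK3, which encodes ankyrin-G, held 4 of 50, NETO1 4 of 15, LRBA 4 of 61 and FBXL17 4 of 45.

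Among peaks in no family, those of SCHLAP1, ZNF471 (score 2561), STRBP (2448) and GALNT2 (2103) followed MAOA, and PNN stood further down. The SCHLAP1 peak at chr2:181707416-181711613 scored 2632 and the gene held 2 shared of 20 peaks. PNN, which encodes pinin, a protein of the spliceosome periphery, had a peak over coding sequence at chr14:39649634-39651112 with a score of 1969. TAF15, a paraspeckle RNA-binding protein, had a coding peak at chr17:34170991-34172103 with 1766. The SFPQ gene held 2 shared of 3 peaks, both intronic, at chr1:35647605-35648262 (score 166) and chr1:35651129-35651951 (score 164). NEAT1 had 0 shared of 1 peak, PSPC1 0 of 9 and FKBP5, an androgen-induced chaperone gene, 0 of 5. NONO, MALAT1 and KLK3, the gene of prostate-specific antigen, had no peak in the list.

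Across all genes in the RIP files, 2.35% held a shared peak and 32.7% any peak of the list. Of the 6841 genes with any peak of the list, 7.38% held a shared peak. Of the hnRNP genes, 5 of 28 held a shared peak (HNRNPA1, HNRNPA2B1, HNRNPH1, HNRNPR and PTBP2). Long genes of neurons and cell adhesion gave 5 of 35, androgen-induced genes 5 of 50 and long chromatin regulator genes 3 of 34 (CHD2, CHD8 and CHD9). Paraspeckle and DBHS genes gave 2 of 23 (SFPQ and TAF15) and long noncoding RNAs 2 of 20. SR proteins and their kinases gave 1 of 23, SRRM2, and U2, U4/U6 and U5 factors 1 of 31, PRPF40B.

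RIP asked whether the transcripts of these genes came down with PSF in separate libraries. Peaks were assigned to a gene by any of its transcripts, while RIP reads were counted over the transcript with the highest mean count. A shared peak can therefore lie outside the transcript tested. Examples are the peaks of SOD2, CHD8 and HNRNPA1 and the higher-scoring peak of SFPQ. Of the 505 genes, 25 had no exonic read, 4 had been merged with a symbol of the same position, and 414 of the remaining 476 passed the filter on low counts and were tested. The counts below describe those 414. By edgeR's quasi-likelihood test at an adjusted p under 0.05, 174 of 414 (42.0%) were higher in PSF-RIP than in input, against 30.5% of all 13367 genes tested, and 92 (22.2%) were lower, against 27.5%. Genes with only other peaks of the list were higher in 33.6% and lower in 28.2% of 5545. The median log2 of PSF-RIP over input was 0.21 for genes with a shared peak, 0.07 for genes with other peaks and 0.05 for all genes. Pair by pair the median of the shared genes ran from 0.10 (LNCaP vehicle) to 0.24 (22Rv1 vehicle), with an SD of 0.05 over the 6 pairs, and lay above the median of all genes in each pair. The difference between these sets was described and not tested. Genes with any shared peak in no family gave 121 higher and 76 lower of 299, with a median of 0.13. Genes whose shared peaks all lay in families or tandem repeats gave 53 higher and 16 lower of 115, with a median of 0.33. With the trend of gene length removed, the median was 0.11. The genes with a shared peak were longer (median span 72.4 kb against 21.2 kb for all genes, median exonic length 4203 against 2692 bases). Their median level in the LNCaP inputs, in reads per kb scaled to library size, was also higher. It was 14.8 (DHT) and 14.6 (vehicle), against 9.43 and 9.53 for all genes tested. The parts of gene length and read level in the difference were not tested.

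**Figure D4:**
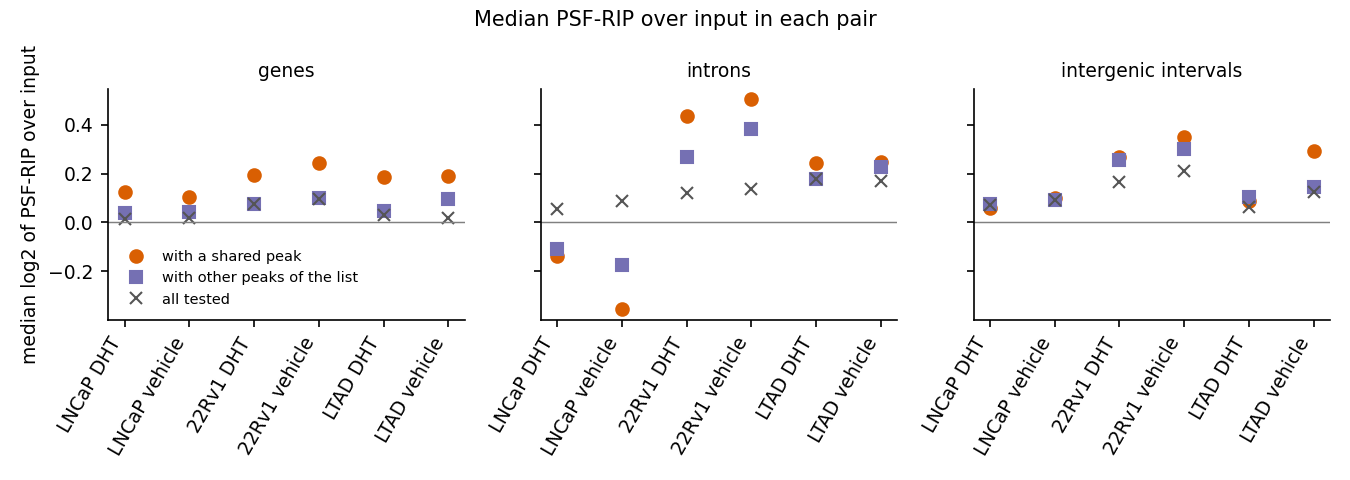
Median log2 of PSF-RIP over input in each pair of line and treatment, for genes, introns and intergenic intervals with a shared peak (circles), with other peaks of the first vehicle list (squares) and for all features tested (crosses). Genes with a shared peak lie between 0.10 and 0.24, and introns lie below 0 in both LNCaP pairs.

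Genes of RNA processing and chromatin were among the highest. HERC2, a ubiquitin ligase gene, measured 87.8, 103 and 129 CPM (reads scaled to library size; lowest, median and highest of 6 libraries) in PSF-RIP and 29.1, 39.6 and 52.0 CPM in inputs. The 2 ranges do not overlap. Its log2 fold change was 1.43 ± 0.11 (SE, adjusted p = 9.58e-10, 6 of 6 pairs), and its peak belongs to a family with HERC2 pseudogenes, so its reads are uncertain. PNISR, which encodes a splicing-related SR-like protein, measured 66.3, 140 and 190 CPM in PSF-RIP and 29.9, 53.4 and 70.8 CPM in inputs, ranges that overlap slightly (log2 1.37 ± 0.11, adjusted p = 1.63e-09). PNN measured 210, 321 and 500 CPM in PSF-RIP and 129, 153 and 214 CPM in inputs (log2 1.03 ± 0.09, adjusted p = 8.19e-09), so its ranges also overlap at one edge. THOC2, a subunit of the THO complex of messenger RNA export, reached 1.09 ± 0.11 on the log2 scale.

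SFPQ's own RNA was enriched in every pair. It measured 282, 296 and 389 CPM in PSF-RIP and 135, 158 and 191 CPM in inputs, so the lowest PSF-RIP library lay above the highest input (log2 0.99 ± 0.08, adjusted p = 2.06e-09, edgeR's quasi-likelihood test). Further genes among the 12 highest were RAB11FIP3 (1.21), HOOK2 (1.06), EIF4G1, a translation initiation scaffold (1.03), WWC1 (1.02), the chromatin remodeller CHD8 (1.01) and ARHGEF10 (0.96), all higher in 6 of 6 pairs.

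A shared peak did not always go with enrichment. The 12 lowest genes, like the 12 highest, were taken among genes at or above the median expression of the genes tested. Below that level, TMEM99 (-2.11 ± 0.23) and SLC27A5 (-1.64 ± 0.19) were also lower in 6 of 6 pairs. TPT1, which encodes the translationally controlled tumour protein, measured 69.4, 81.8 and 131.7 CPM in PSF-RIP and 945, 1000.2 and 1200.4 CPM in inputs (log2 -3.51 ± 0.10, adjusted p = 5.89e-17). Its peak touches the 3′ UTR and scored 216. SLIRP, a mitochondrial RNA-binding protein gene, measured 21.6, 24.6 and 30.1 CPM in PSF-RIP and 76.9, 101 and 122 CPM in inputs (log2 -1.996 ± 0.11, adjusted p = 5.75e-12). NDUFB4, a subunit of respiratory complex I, was at -1.80 ± 0.11 and ATP6V1G1, a proton pump subunit, at -1.56 ± 0.10. The other genes of the 12 lowest were ZDHHC20, GULP1, FAM162A, SLC35A3, PCMTD1, UBE2E2, LPP and SOD2, between -1.54 and -1.07, and each was lower in 6 of 6 pairs.

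**Figure D5:**
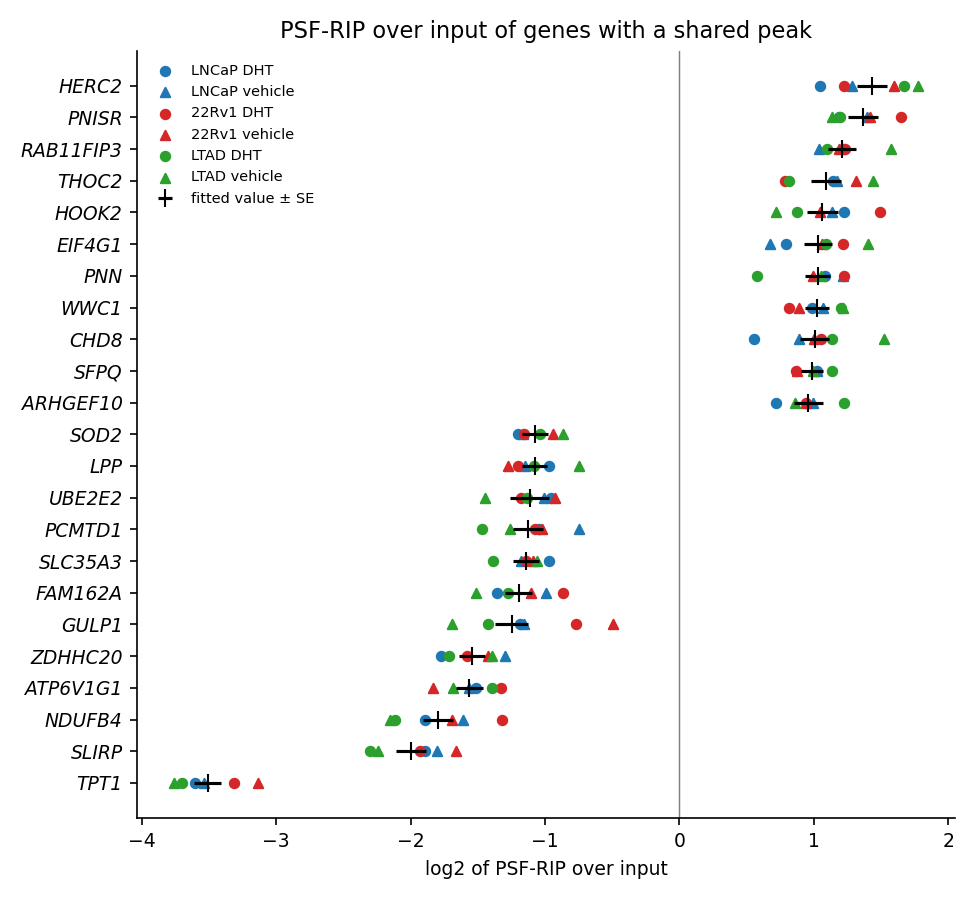
Log2 of PSF-RIP over input in each of the 6 pairs (points) with the fitted value and its SE (black), for 11 of the 12 highest and the 12 lowest genes with a shared peak among those at or above median expression and past the test with the same sign in 6 pairs. TPT1 stands apart at -3.51, and the genes above 0 span 0.96 to 1.43.

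Genes with many shared peaks went both ways. NCAM2 measured 6.35, 82.0 and 251 CPM in PSF-RIP and 12.6, 160 and 483 CPM in inputs (log2 -0.91 ± 0.11, adjusted p = 5.48e-07, lower in 6 of 6 pairs). The wide ranges reflect levels that differ between lines. NAALADL2 was also lower (log2 -0.70 ± 0.11, adjusted p = 1.11e-05) and FBXL17 at -0.35 ± 0.10 lost its call without LNCaP (adjusted p = 0.23). PPP3CA measured 749, 1115 and 1298 CPM in PSF-RIP and 521, 799 and 1188 CPM in inputs (log2 0.38 ± 0.10, adjusted p = 0.00235), and LRBA was higher at 0.51 ± 0.09. ANK3 (0.44 ± 0.15), PRKD1 (0.33 ± 0.11) and PPFIA2 (0.45 ± 0.13) passed the test but not without LTAD, with adjusted p = 0.212, 0.0994 and 0.0519. With the length trend removed, ANK3 (0.16, adjusted p = 0.416, edgeR) and PRKD1 (0.24, adjusted p = 0.0535) were not called either. MIR99AHG (-0.02 ± 0.14) and NETO1 (0.03 ± 0.15) did not pass.

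Among the named genes of splicing and transcription with a shared peak, most were higher. HNRNPH1 (0.71 ± 0.10), SRRM2 (0.46 ± 0.10), TAF15 (0.44 ± 0.10), CHD2 (0.68 ± 0.09), PRPF40B (0.73 ± 0.18), KDM3A, a histone demethylase (0.73 ± 0.14), and GRHL2, an epithelial transcription factor (0.59 ± 0.14), passed the test. CHD9 did so at 0.31 ± 0.09, but was at 0.082 and not called with the length trend removed (adjusted p = 0.48). HNRNPR (0.27 ± 0.09) lost its call without LNCaP (adjusted p = 0.113) or LTAD (0.131), and PTBP2 (0.52 ± 0.20) without LNCaP (0.076) or 22Rv1 (0.341). With the length trend removed, HNRNPR (0.083, adjusted p = 0.445, edgeR) and PTBP2 (0.41, adjusted p = 0.0925) were not called either. HNRNPA1 (0.13 ± 0.13) and SCHLAP1 (0.31 ± 0.16, adjusted p = 0.107) did not pass. With the pair as a block SCHLAP1 was called (adjusted p = 0.0244, edgeR), as it was with no filter (0.0419), with the length trend removed (0.0076) and in LNCaP only (0.000802). CTBP1-AS, an antisense RNA, had no read in either 22Rv1 PSF-RIP library, and its 1.58 ± 0.33 was not called without LNCaP (adjusted p = 0.128). Of the 5 androgen-induced genes, TPD52 (-0.97 ± 0.09) and STEAP2 (-0.51 ± 0.13) were lower in 6 of 6 pairs, and ZBTB16 was higher (0.46 ± 0.17, 4 of 6 pairs, adjusted p = 0.0238, edgeR). ZBTB16 was not called by DESeq2 (adjusted p = 0.0738) or with counts summed over transcripts (0.0553). ACSL3 (-0.24 ± 0.12) and HERC3 (0.48 ± 0.25) did not pass.

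Over whole gene lists, with or without a shared peak, counts stand beside 30.5% higher and 27.5% lower among all 13367 genes. Of these lists, 26 of 31 tested U2, U4/U6 and U5 factors were higher in PSF-RIP and 0 lower. Long chromatin regulator genes gave 32 higher and 0 lower of 34, hnRNP genes 18 and 3 of 28, and paraspeckle and DBHS genes 16 and 4 of 23. SR proteins and their kinases gave 14 and 2 of 22, long genes of neurons and cell adhesion 10 and 1 of 23, and long noncoding RNAs 6 and 6 of 16. Androgen-induced genes gave 6 higher and 19 lower of 48.

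Genes named without a shared peak also differed. MALAT1, a nuclear long noncoding RNA, was higher in PSF-RIP (1.24 ± 0.16, 6 of 6 pairs) and had no peak in the list. PSPC1 was higher (0.61 ± 0.13) and NEAT1 lower (-0.99 ± 0.10). FKBP5 was at -0.32 ± 0.13, not called without 22Rv1 (adjusted p = 0.134). NONO (-0.14 ± 0.09) and KLK3 (0.08 ± 0.32) did not pass.

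Reads over the introns that held shared peaks stood near the background. Of 496 such introns, 328 passed the filter. Of these 57 (17.4%) were higher in PSF-RIP by the same test, against 13.5% of 29094 introns, and 27 (8.23%) were lower, against 10.3%. Introns with only other peaks of the list were higher in 12.1% and lower in 7.13% of 4865. The median log2 was 0.15, beside 0.13 for all introns, and it differed by line. It was -0.14 (DHT) and -0.35 (vehicle) in LNCaP, 0.43 and 0.50 in 22Rv1 and 0.24 and 0.25 in LTAD, while all introns lay between 0.05 and 0.18. Introns with other peaks of the list showed -0.11 and -0.17 in LNCaP and 0.27 and 0.38 in 22Rv1. The LNCaP cells, in which the peaks were found, thus gave the lowest medians, and the difference between lines was not tested. Without 22Rv1 the median was -0.19, and without LNCaP it was 0.49 with 100 introns higher and 10 lower.

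Among single introns, an intron of GPI, a glycolytic enzyme gene, at chr19:34872425-34884152 measured 61.6, 78.9 and 213 CPM in PSF-RIP and 11.7, 17.4 and 45.5 CPM in inputs, without overlap (log2 2.22 ± 0.21, adjusted p = 5.52e-08), though inputs held as few as 3 reads. The introns of SFPQ at chr1:35643638-35652601 and chr1:35650195-35652601, which overlap each other, were at 1.12 ± 0.12 and 1.38 ± 0.17. RNFT1 (1.89), HOOK2 (1.56), ZNF189 (1.52) and CCDC14 (1.49) followed GPI. The RNFT1 intron rested on 0 to 4 input reads a library, with pair values of 0.48 to 3.76. SNHG22 (-1.12), SOD2 (-1.12), NUMA1 (-1.08), KDM6A (-1.03) and MLPH (-1.01) were the 5 lowest. KDM6A was not called without LNCaP (adjusted p = 0.28), nor MLPH without 22Rv1 (adjusted p = 0.135). With no filter on low counts NUMA1 (-0.62), KDM6A (-0.55) and MLPH (-0.56) were not called (adjusted p = 0.187, 0.338 and 0.28).

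Regions outside genes were counted in the same way, an addition made after seeing the data. Of 335 intergenic intervals with a shared peak, 188 were tested and 42 (22.3%) were higher in PSF-RIP, against 20.6% of 5967, while 15 (7.98%) were lower, against 15.4%. Intervals with only other peaks of the list were higher in 25.9% and lower in 14.0% of 1211. Intervals of the large repeat family gave 22 higher and 10 lower of 119, with a median log2 of 0.27, beside 0.14 for all intervals. Whole intervals were counted, so reads at the repeat itself are not separated from the rest.

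DHT was compared with vehicle in each assay, with the 3 lines as samples. In bulk cells a change in RNA per cell and a change in the number of cells of a type cannot be told apart. In the inputs, 10 of 418 genes with a shared peak (2.39%) were higher after DHT, against 0.436% of all 13776, and 2 (0.478%) were lower, against 0.181%. In PSF-RIP, 19 (4.55%) were higher, against 1.5%, and 8 (1.91%) were lower, against 1.39%. The part that the higher read level of genes with a shared peak has in these shares was not tested. Of the inputs' 10 higher genes, KCNN2, a calcium-activated potassium channel, led with 70, 79 and 93 raw reads after DHT in LNCaP, 22Rv1 and LTAD, against 21, 22 and 8 after vehicle. Every line had more after DHT (log2 2.13 ± 0.26, adjusted p = 0.00312, edgeR's quasi-likelihood test). C1orf21 (1.78), ACSL3, a fatty acid activating enzyme (1.61), ZMIZ1, a transcriptional coregulator (1.13), and MAOA (1.00) followed, and PITX1 (-0.82) and NCAM2 (-0.84) were lower in 3 of 3 lines. Without 22Rv1 only ZMIZ1 of these 7 stayed past the threshold.

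All 12 genes called in the inputs were also called in PSF-RIP, in the same direction. KCNN2 had 177, 211 and 359 raw reads after DHT in LNCaP, 22Rv1 and LTAD, against 64, 89 and 51 after vehicle (log2 2.05 ± 0.19). ZBTB16, an androgen-induced zinc finger gene, was at 1.97 ± 0.23, C1orf21 at 1.75, ACSL3 at 1.56 and HERC3 at 1.37, the last not called without LTAD (adjusted p = 0.134). TMEM99 (-1.18), NCAM2 (-0.97), IFI6, an interferon-induced gene (-0.93), PITX1 (-0.78) and PPFIA2 (-0.76) were lower. IFI6 in 22Rv1 rested on 1 read after DHT and 8 after vehicle. Without 22Rv1 none of these 5 lower genes was called, and TMEM99 lost its call whichever line was left out.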

How the data were processed

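Per the file headers, the RIP-seq tables hold raw read counts per RefSeq transcript, intron and intergenic interval on hg19, as deposited by the authors. The submitters' processing notes name TopHat2 2.1.0, Bowtie2 2.2.6 and Bowtie, without roles. The CLIP files hold 1 deposited peak list per library with a score per peak, given by the authors' caller, and peak names start with MACS. No source used here gives the settings of the caller.

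Peaks were intersected with bedtools 2.31.1 (1 bp or more). Position used RefSeq spans from the files and GENCODE 44 lifted to GRCh37. For each gene the transcript with the highest mean count was kept. Features passing filterByExpr were fitted with edgeR 4.0.16 (quasi-likelihood, TMM, Benjamini-Hochberg, adjusted p under 0.05) in R 4.3.3, across all 12 libraries, and tested on simulated data. DESeq2 1.42.0 was an alternative. For RIP over input, the model held assay with additive terms for line and treatment, and no pair term. For DHT, line by assay was in the model. Values per pair used a prior count of 2.

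PSF-RIP and input of 1 line and treatment were taken as a pair for the values per pair and for the setting with the pair as a block. Their deviations from the assay means correlated at 0.799 to 0.942.

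Named genes were a fixed set with SFPQ and its partners, those with the most shared peaks or highest scores, the 12 highest and 12 lowest RIP folds (5 and 5 for introns and DHT) with 1 sign throughout, for RIP at or above the median expression of the features tested, and up to 4 per list. Members and gene lists were chosen with earlier results of these data known. CLIP inputs, a second LNCaP set and 12 value columns of 2 series-wide tables were not used here. Some items that this rule names, and 1 gene list, are not reported here.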

Additional observations from a re-analysis of the deposited data

Results flagged for a closer look

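Among 96 values examined over 6 pairs, 6 had 1 pair far from the others, and some such gaps arise by chance in groups of this size. The log2 of PSF-RIP over input was -0.79 for KCNN2 in LTAD DHT (median of 6 pairs -0.33), -0.34 for NCAM2 in LTAD vehicle (median -0.94) and 0.58 for PNN in LTAD DHT (median 1.07). It was 2.08 for PPFIA2 in 22Rv1 vehicle (median 0.46), 1.58 for RAB11FIP3 in LTAD vehicle (median 1.20) and 0.30 for ZMIZ1 in LNCaP vehicle (median 0.65). The PPFIA2 value rested on 2 reads in the 22Rv1 vehicle input.

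In 11 contrasts both pairs of one line lay above 0 and both of another below it. None of these differences between lines was tested. For the introns with a shared peak, the median differed by -0.71 between LNCaP and 22Rv1 (LNCaP minus 22Rv1) and by -0.49 between LNCaP and LTAD. MIR99AHG was higher in LNCaP than in 22Rv1 by 0.93 and HNRNPA1 by 0.93, and HNRNPA1 differed by -0.74 between 22Rv1 and LTAD. CNTNAP2, whose lowest PSF-RIP library held 3 reads and whose lowest input held 0, differed by -1.35 between LNCaP and LTAD. KLK3, whose lowest input held 2 reads, differed by 0.63 between 22Rv1 and LTAD. NETO1 differed by 0.26 between LNCaP and LTAD and by 0.39 between 22Rv1 and LTAD. MAOA differed by -0.19 between LNCaP and 22Rv1 and by -0.35 between LNCaP and LTAD.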

How the results depend on the processing

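The number of shared peaks depended on the overlap rule. It was 1002 with at least 0.5 of the shorter peak covered, 378 with the vehicle peak's centre inside every other list, 77 with reciprocal overlap of 0.5 and 396 among peaks at or above the median score of each list. Leaving out 1 list gave 1026 to 4492, the highest without the second vehicle list. With the centre rule 227 genes were touched and 67.7% of peaks were in a RefSeq gene. The same-strand rule was not run, since the lists give no strand. Joining families at 25, 100 or 200 words (chosen after seeing the data) gave 384, 310 or 266 peaks in the large one.

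For genes, leaving out 1 line gave 3163 to 3881 higher and 3184 to 3425 lower, with 152 to 161 and 79 to 87 shared-peak genes and a median of 0.17 to 0.22. That median was 0.28 with no filter, 0.14 with DESeq2, 0.11 with the length trend removed and 0.13 in LNCaP only. For introns, leaving out 1 line gave 2101 to 4024 higher and 1769 to 2675 lower, 31 to 100 and 10 to 40 with a shared peak, and a median of -0.19 to 0.49. No filter gave 11393 higher, 135 and 4 with a shared peak and a median of 0.58, and DESeq2 gave 12 lower. For intergenic intervals the ranges were 715 to 998 and 686 to 825, 24 to 42 and 9 to 14 with a shared peak, and 0.13 to 0.33 for the median. No filter gave 2287 higher, 83 and 9 with a shared peak and a median of 0.46, and DESeq2 a median of 0.13. The causes were not tested.

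For DHT in inputs, leaving out 1 line gave 22 to 88 higher and 2 to 32 lower, with 4 to 10 and 0 to 1 shared-peak genes. No filter gave 243 and 151, with 25 and 6, and DESeq2 98 and 44, with 16 higher. DESeq2 size factors left 1 lower. In PSF-RIP the ranges were 71 to 228 and 23 to 223, with 11 to 14 and 2 to 7. No filter gave 437 and 501, with 29 and 15, and DESeq2 110 lower.

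With the pair as a replicate block, genes gave 4520 higher and 3977 lower (187 and 98 with a shared peak, median 0.19), introns 4277 and 3152 (68 and 25, 0.17) and intergenic intervals 1338 and 945 (47 and 16, 0.28). Under the block SCHLAP1 was called (adjusted p = 0.0244, edgeR), and MIR99AHG was at 0.012 and TP73-AS1 at 0.013. No separate block was run for DHT, since line by assay in its model already compares DHT with vehicle within each line and assay. None was run for peak lists, because they carry no test.

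Of 83 named genes, 51 kept their direction and side of the threshold in all 10 settings. Of the others, 9 changed sign in at least 1 setting. With no filter MIR99AHG was at 0.033 and TP73-AS1 at 0.050. With DESeq2 KLK3 was at -0.051 and TP73-AS1 at 0.0053. With the length trend removed IFI6 was at 0.37, MAOA at -0.035 and NETO1 at -0.12. In LNCaP only HERC3 was at -0.0031, KLK3 at -0.0083, MAOA at -0.10 and MIR99AHG at 0.33. Leaving out 1 line gave -0.066 to 0.46 for HNRNPA1, -0.091 to 0.12 for KLK3, -0.035 to 0.23 for MAOA, -0.27 to 0.12 for MIR99AHG, -0.040 to 0.094 for NETO1, -0.42 to 0.12 for RPH3AL and -0.12 to 0.060 for TP73-AS1. The shallowest input held 1073228 reads.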
